A study of Mus musculus with 34 samples.

Results

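Late-passage detached cells of 2 mouse embryonic stem (ES) cell lines, D4 and C2, were compared. The members were chosen from the titles of the samples, which gave 2 detached RNAs of D4 (replicates 1 and 3) and 3 of C2 (replicates 1 to 3). Each RNA was hybridised to the Affymetrix arrays MOE430A and MOE430B, so 10 of the 34 arrays and 5 of the 17 RNAs of the series were used. Both lines are C57BL/6 and blastocyst-derived, grown with LIF on feeders of primary embryonic fibroblasts, at an estimated purity of about 90%. Both detached groups grew in Thromb-XTX-WES medium, and the labels describe both as giving high chimerism and germline transmission. Late attached cells of both lines shared that medium and that outcome, while early-passage cells grew in DMEM with 15% fetal bovine serum and are labelled as giving low chimerism and no germline transmission. What the cells were attached to or detached from, the passage numbers, and whether the RNAs of 1 group are separate cultures are not given in the sources used here. The p-values therefore describe the spread between RNAs, part or all of which may be technical.

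ES cells keep the properties of the early epiblast through a network of transcription factors around Pou5f1, Sox2 and Nanog, held in place in culture by LIF acting through Stat3. Lines from 1 inbred strain share their genome at derivation and can then diverge in imprinting, X inactivation and karyotype. Gains of whole chromosomes, with chromosomes 8 and 11 among them, are known in cultured mouse ES cells. Copy number was not measured in the data used here.

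Values are MAS5 signals on the scale log2(signal + 16), differences are D4 minus C2, and a probe set is 1 set of oligonucleotides on the array directed at a transcript. The 7 ES cell markers (Pou5f1, Nanog, Sox2, Zfp42, Utf1, Tdgf1 and Dppa5a) were above the array median in all 5 detached RNAs, with a mean level of 13.77 to 13.84 in C2 and 13.93 to 13.95 in D4. Of 9 feeder fibroblast markers on the arrays, 3 (Acta2, Col1a2 and Thy1) were above the median in every detached RNA. Their mean level over all 9 was 8.40 to 9.44 in C2 and 8.41 to 8.82 in D4, so the lines overlapped. The mean over 5 trophoblast markers was 6.74 to 7.87 in C2 and 6.87 to 7.24 in D4, and Eomes alone exceeded the median throughout. Of 3 mesoderm markers, Kdr and Eomes were above the median in all 5, and the mean was 9.45 to 9.66 in C2 and 9.38 to 9.40 in D4, without overlap. Only Kdr had both D4 values below C2, at 9.43 and 9.34 against 9.68 to 10.15. Eomes and Mixl1 overlapped between the lines. Endoderm markers averaged 8.61 to 9.25 in C2 and 8.77 to 9.02 in D4, with Dab2, Gata6, Gata4 and Cubn above the median in all 5. The 3' to 5' signal ratio of Actb, a sign of RNA integrity, was 1.05 to 1.21 in C2 and 1.09 to 1.14 in D4 on MOE430A. On MOE430B it was 1.35, 1.12 and 1.10 in C2 and 1.10 and 1.05 in D4, highest in C2 replicate 1. Median signals were 550 to 593 in C2 and 529 to 533 in D4 on MOE430A, and 861 to 896 and 799 to 848 on MOE430B. The number of arrays limits the precision. Every C2 detached array was scanned on 1 day and every D4 detached array on another, so line and scan day cannot be told apart in detached cells. The attached arrays of both lines were scanned on 1 day, in separate fluidics runs, and are given beside the results for that reason. Early-passage arrays on MOE430A were divided by day as the detached arrays were, with C2 on the first day and D4 on the second.

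Across the 2 array types, no gene differed between detached D4 and C2 cells past the threshold. In limma, 0 of 14160 tested probe sets on MOE430A (percent called 0) and 0 of 16213 on MOE430B (percent called 0) had an adjusted p under 0.05. At an unadjusted p under 0.05 there were 374 on MOE430A (2.64%), of which 109 were higher in D4 (0.77%) and 265 lower (1.87%). On MOE430B there were 660 (4.07%), of which 212 were higher (1.31%) and 448 lower (2.76%). The smallest adjusted p was 1.00 on MOE430A and 0.067 on MOE430B. A fit to the 5 detached arrays alone called 3 probe sets on MOE430A and 0 on MOE430B, and array weights called 0 and 6. Without D4 detached replicate 1 there were 4 calls on MOE430A, and without C2 detached replicate 3 there was 1 on MOE430B. The 3 of the detached arrays alone were Bmp1, a procollagen protease, at -2.61, the tetraspanin Tspan10 at -2.63 and the digestive protease Ctrb1 at 2.44.

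Across tested probe sets on MOE430A, pairs of C2 detached RNAs correlated at r = 0.923 to 0.943, the D4 pair at 0.957, and pairs of different lines at 0.930 to 0.951. The ranges on MOE430B were 0.776 to 0.787, 0.818 and 0.785 to 0.805. Probe sets are not independent replicates, so these are descriptions. The ranges between lines thus overlapped those between replicates of C2. On MOE430A the differences from the 5th to the 95th percentile lay between -0.60 and 0.50, and 139 probe sets were higher and 224 lower by at least 1 log2 unit. The range was -1.21 to 1.02 on MOE430B, where 855 were higher and 1211 lower by that size.

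The precision of single genes depended on their brightness. On MOE430A the median standard error was 0.32, and the 95% interval lay within 2-fold in either direction for 8575 of 14160 probe sets (60.6%). That share was 30.4% of probe sets with a mean log2 signal up to 10, 79.2% between 10 and 12, and 93.8% above 12. On MOE430B the median standard error was 0.57 and the share 19.9%. For most bright genes on MOE430A the interval thus left out differences of more than 2-fold, and for most dim genes and most of MOE430B it did not.

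A pattern shared by many genes was found on chromosome 11. With 1 probe set per gene (14105 genes), the median difference of its 1140 tested genes was -0.14, against 0.00 for the 12835 genes of the other autosomes and X, a difference of -0.14 or a ratio of 0.905. Of chromosome 11 genes, 68.9% were below 0, against 49.8% elsewhere. The medians of the other chromosomes ran from -0.03 (chromosome 9) to 0.02 (chromosome 4). Chromosome 8, with 727 genes, had a median of -0.01. Chromosome 11 was singled out after these values were seen, so no p is given for it.

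**Figure D1:**
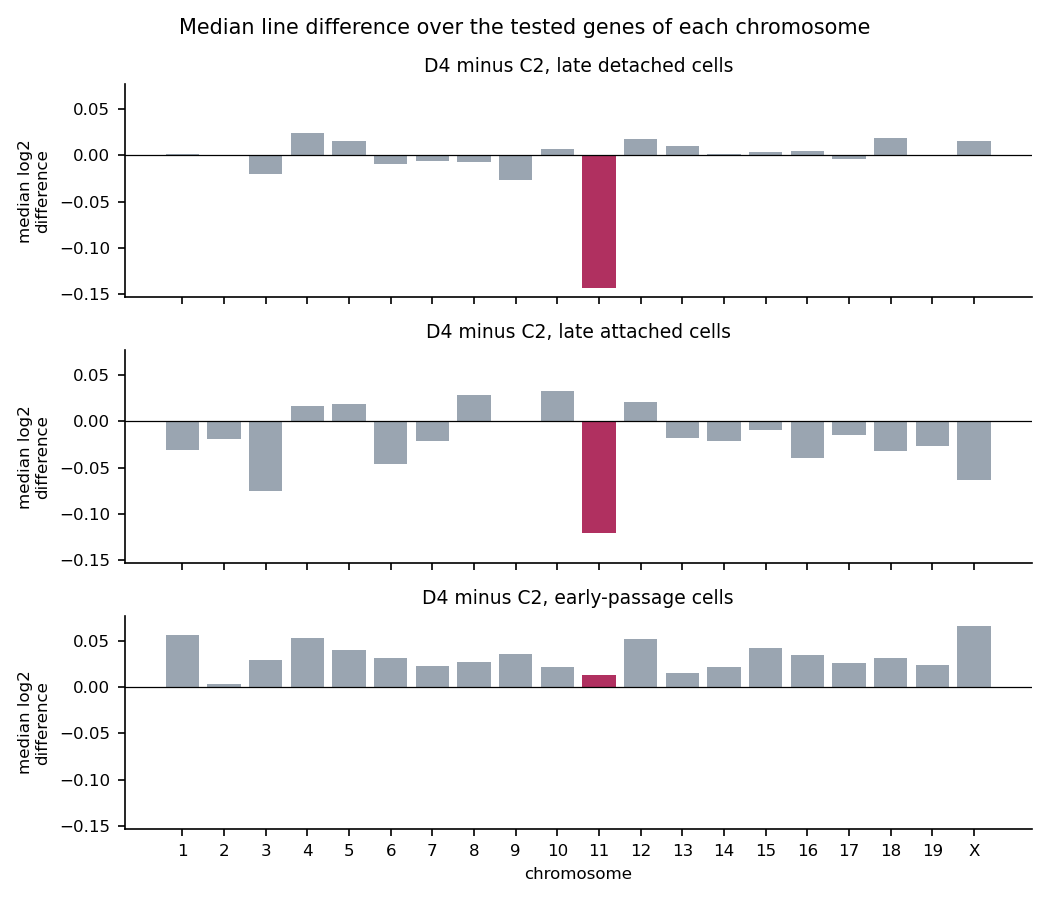
Bars give the median log2 difference, D4 minus C2, over the tested genes of each chromosome, in late detached, late attached and early-passage cells. Chromosome 11 (dark red) lay at -0.14 in detached and -0.12 in attached cells and at 0.01 in early-passage cells.

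The same chromosome had the lowest median in late attached cells, whose means come from other RNAs and which were scanned on the same day in both lines. There the median of chromosome 11 was -0.12, against -0.01 for the other genes, and 62.4% of its genes were below 0, against 51.2%. The medians of the other chromosomes were spread more widely than in detached cells, from -0.08 (chromosome 3) to 0.03 (chromosome 10). C2 attached replicate 1 had the highest median signal on MOE430A (817) and MOE430B (989). D4 attached replicate 3 stood apart in protocol on MOE430A. It also had the highest Actb 3' to 5' ratio on both array types, at 1.84 and 1.92. Without these RNAs the attached difference of -0.11 was -0.08. In early-passage cells the median was 0.01, against 0.03 for the others, with 48.9% below 0 against 46.0%.

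Scores of single RNAs set the late C2 RNAs apart. The score is the median, over the genes of a chromosome, of the deviation from the gene's mean over the 17 RNAs, less the same for the other chromosomes. For chromosome 11 the 3 C2 detached RNAs scored 0.12, 0.13 and 0.04, and both D4 detached RNAs scored -0.05. The C2 mean was 0.095 ± 0.051 (SD, n = 3) and the D4 mean -0.047 ± 0.00077 (SD, n = 2), and the groups did not overlap. The C2 attached RNAs scored 0.09, 0.04 and 0.01, also above every D4 RNA. C2 early-passage RNAs scored -0.04, -0.01 and -0.04, and D4 attached and early-passage RNAs between -0.08 and -0.03. All 6 late C2 RNAs were thus above 0 and all other 11 RNAs below 0. The scores are centred over all 17 RNAs, so high scores in some push the rest down, and the 2 signs are not separate results. The gap was small, between 0.013 in C2 attached replicate 3 and -0.006 in C2 early-passage replicate 2. Chromosome 11 had the highest score of any chromosome in each C2 detached RNA, by the smallest margin in replicate 3. It lay within the range of the others in C2 attached replicate 3, D4 detached replicate 3 and D4 attached replicate 3. The same held for D4 early-passage replicate 1 and C2 early-passage replicates 2 and 3.

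The RNA with the lowest of the C2 detached scores, replicate 3, also had the highest feeder signal of the 5. Its mean over the tested members of a list of 36 feeder genes was 10.27 on MOE430A, against 9.52 and 9.77 in the other C2 RNAs and 9.44 and 9.81 in D4. With that mean as a covariate, the chromosome 11 difference was -0.14. Leaving out each detached RNA in turn gave -0.18 to -0.12, lowest without C2 replicate 3 and highest without C2 replicate 2.

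**Figure D2:**
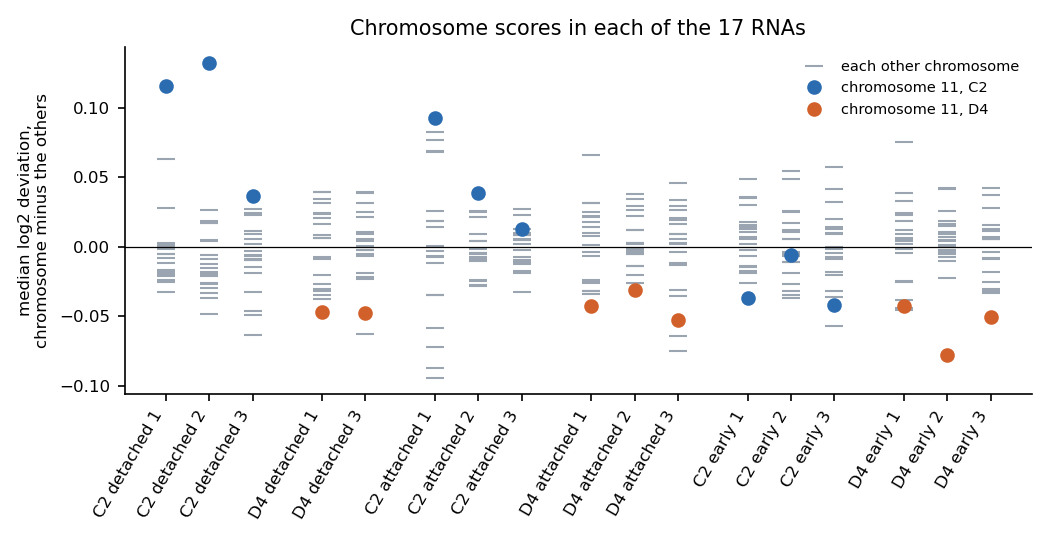
Each column is 1 RNA and each point the score of 1 chromosome (median log2 deviation from the gene means over 17 RNAs, less that of the other chromosomes). Filled circles are chromosome 11 in C2 (blue) and D4 (orange), and dashes are the other chromosomes; the 6 late C2 RNAs lie between 0.01 and 0.13.

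The lower level in D4 ran along the whole of chromosome 11. Ordered by position and divided into 12 segments of 95 genes, every segment had a negative median in detached cells, from -0.23 (Fndc9 to Larp1) to -0.09 (2610507B11Rik to Trim37). Every segment was negative in attached cells too, from -0.17 to -0.07. In early-passage cells the segments ran from -0.07 to 0.07, and 4 of 12 were negative. Windows of 50 neighbouring genes were taken over all chromosomes every 25 genes, so adjacent windows share genes and are not separate regions. In detached cells 27 of the 30 lowest of 531 lay on chromosome 11. All 44 windows of that chromosome were below 0 in detached and in attached cells, and 19 were in early-passage cells. The lowest window of all lay on chromosome 13 (Aoah to 4930519D14Rik), at -0.31 in detached but -0.06 in attached cells.

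**Figure D3:**
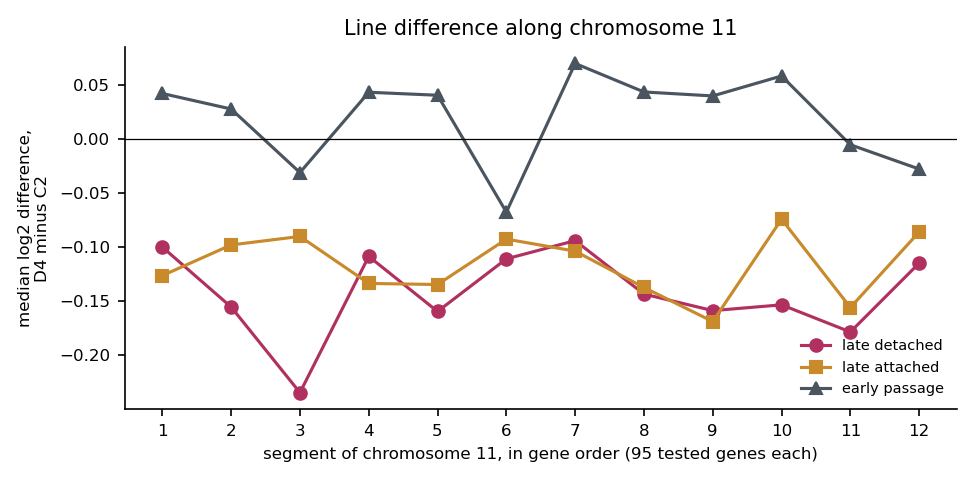
Points give the median log2 difference, D4 minus C2, in 12 consecutive segments of 95 tested genes along chromosome 11, for late detached (circles), late attached (squares) and early-passage cells (triangles). All 12 segments lie below 0 in both late states, from -0.23 to -0.09 in detached and -0.17 to -0.07 in attached cells.

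In detached cells the difference was negative in each class of genes looked at. It was -0.15 among genes measured on MOE430A and -0.11 on MOE430B. By brightness it was -0.12 for genes with a mean log2 signal up to 10, -0.13 at 10 to 11, -0.13 at 11 to 12 and -0.18 above 12. The attached differences were -0.02, -0.12, -0.18 and -0.16 in the same order, so the dimmest genes differed little there. Genes were also divided by the number of CG dinucleotides in the promoter window (250 bases before to 50 after the start), at the median of 19. The detached difference was -0.15 for the CG-rich and -0.12 for the CG-poor genes. A window was found for 911 of the 1140 chromosome 11 genes and 10321 of the other 12835.

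The windows of Ankfy1 and Tspan10 show both kinds of promoter. They are the chromosome 11 genes with the smallest p for a lower level in detached D4 cells. Ankfy1 encodes an endosomal protein with ankyrin repeats and a FYVE domain, and its window holds 20 CG dinucleotides. The window of Tspan10, a tetraspanin, holds 1. Both sequences are from RefSeq on GRCm38.p6, plus strand, 5′ to 3′, with each CG in capitals; Ankfy1 is at chr11:72689752-72690051 and Tspan10 at chr11:120442381-120442680. At least 1 CG was found in 94.2% of the 27025 windows, and CG reads the same on both strands.
Ankfy1: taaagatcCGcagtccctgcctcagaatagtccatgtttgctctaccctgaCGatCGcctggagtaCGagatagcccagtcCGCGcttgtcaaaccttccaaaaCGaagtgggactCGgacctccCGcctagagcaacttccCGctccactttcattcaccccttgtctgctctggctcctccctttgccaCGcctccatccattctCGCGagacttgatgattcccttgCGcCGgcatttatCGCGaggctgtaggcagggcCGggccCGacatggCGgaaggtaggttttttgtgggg
Tspan10: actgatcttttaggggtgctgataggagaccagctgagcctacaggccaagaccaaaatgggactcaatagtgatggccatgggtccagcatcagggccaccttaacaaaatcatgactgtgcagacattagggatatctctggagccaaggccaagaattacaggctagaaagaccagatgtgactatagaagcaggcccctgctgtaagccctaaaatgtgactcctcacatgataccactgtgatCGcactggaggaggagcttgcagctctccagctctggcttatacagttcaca

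Ankfy1 was at 10.48, 10.81 and 10.39 in C2 and 9.72 and 9.43 in D4 detached cells, a difference of -0.98 (SE 0.19, limma adjusted p = 1.00). Tspan10 was at 9.39, 9.68 and 9.52 in C2 and at 6.68 and 7.12 in D4, a difference of -2.63 (SE 0.58, limma adjusted p = 1.00). Neither gene's groups overlapped. In attached cells their differences were 0.13 and -0.34. Of the 1140 chromosome 11 genes, 277 (24.3%) had both D4 RNAs below all 3 of C2 and 50 (4.39%) had both above. Among the other genes these shares were 10.7% and 10.9%, and over all 14105 genes 11.9% and 10.3%. An unadjusted p under 0.05 was found for 431 of 14105 genes (3.06%). Chromosome 11 held 53 of the 298 that were lower in D4 and 8 of the 133 that were higher.

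Listed genes on chromosome 11, named here after their values were seen, were mostly below 0 and were not called. Of 43 list members on the chromosome, 33 were below 0 in detached cells, with a median of -0.16, against 249 of 538 and 0.02 for members elsewhere. In attached cells 26 of the 43 were below 0, with a median of -0.03, and in early-passage cells 24 were, with a median of -0.06. In the listed members the contrast with early-passage cells was thus seen in detached but not in attached cells. Over the whole chromosome it was seen in both late states. Acaca and Fasn, which make malonyl-CoA and fatty acids from it, were at -0.78 (SE 0.25) and -0.32 (SE 0.18). Acaca was at 9.56, 9.48 and 9.50 in C2 and 8.71 and 8.75 in D4. Xbp1, a transcription factor of the unfolded protein response, was at 13.05, 13.12 and 12.76 in C2 and 12.48 and 12.05 in D4, a difference of -0.72 (SE 0.25). The glycolytic enzyme gene Aldoc differed by -0.86 (SE 0.34), the interferon regulator Irf1 by -0.56 (SE 0.23) and the DNA topoisomerase gene Top2a by -0.37 (SE 0.17). These 5 genes other than Fasn had an unadjusted p under 0.05 and none was called. In all 6 the D4 values lay below those of C2, as in 24.3% of all chromosome 11 genes. The 6 were picked by their values, so this is no separate result. In attached cells Fasn was at 0.26 and Top2a at 0.08, and the others lay between -0.43 (Aldoc) and -0.10 (Irf1). Of the members above 0 in detached cells, Etv4 (0.52) and Znrf3 (0.24) had both D4 values above C2. Socs3 (0.36) and Grb10 (0.33) overlapped. The Polycomb subunit gene Suz12 was at -0.41 (95% interval -0.89 to 0.06), and Stat3 at -0.08 (-0.59 to 0.42). The 6 proteasome subunit genes of the chromosome had a median of -0.11, and the 21 elsewhere 0.02.

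In the pluripotency network no gene was called between detached D4 and C2 cells, and most intervals excluded a 2-fold difference. No member of the naive list (25 tested) or the general list (23 tested) was called, and 0 of either had an unadjusted p under 0.05 in limma. Over all genes 133 (0.943%) were higher and 298 (2.11%) lower at that p, and 0 of 14105 were called (percent called 0). The medians were -0.03 and 0.11, against -0.01 over all genes. Intervals lay within 2-fold for 18 of 25 and 15 of 23.

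Pou5f1, which encodes the POU factor Oct4, was at 14.04, 14.05 and 13.89 in C2 and 14.06 and 14.20 in D4. Its difference was 0.13 with a 95% interval from -0.42 to 0.69. Sox2, the partner of Oct4 on DNA, was at 13.42, 13.40 and 13.24 in C2 and 13.64 and 13.89 in D4. Both D4 values were above those of C2, and the difference of 0.41 had an interval from -0.20 to 1.02. Nanog, a homeobox gene, was at 12.91, 12.88 and 12.72 in C2 and 13.04 and 12.65 in D4, with a difference of 0.01 (-0.77 to 0.79).

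The naive factors that act beside them mostly overlapped between the lines. In the naive list 1 of 25 genes had both D4 RNAs above C2 and 2 had both below. Over all genes these shares were 10.3% and 11.9%, so lack of overlap was no more common in this list. The nuclear receptor gene Esrrb differed by 0.05 (-0.39 to 0.50), the Krüppel-like factor gene Klf4 by -0.03 (-0.69 to 0.63), and the zinc finger gene Zfp42 (Rex1) by 0.03 (-0.79 to 0.84). Tbx3, a T-box gene, differed by 0.18 (-0.43 to 0.78). The values of these 4 overlapped. Tcl1, a coactivator of Akt, was at 11.60, 11.50 and 11.40 in C2 and 11.29 and 11.30 in D4, a difference of -0.21 (-0.75 to 0.34). Dppa3 (Stella), a protector of maternal methylation, was at 11.85, 11.78 and 11.75 in C2 and 11.48 and 11.46 in D4, a difference of -0.32 (-1.19 to 0.55). For Tcl1 and Dppa3 both D4 values were below C2, and for the homeobox gene Gbx2, at 0.34 (-1.11 to 1.79), both were above. In the general list 7 of 23 genes had both D4 RNAs above C2 and 0 below, against 10.3% and 11.9% of all genes. They were Sox2, Pou5f1, Trim28, Epcam, Tdgf1, Rif1 and L1td1, with differences from 0.06 to 0.41. In attached cells the general list had a median of 0.30 and in early-passage cells -0.06. Bright genes as a whole also leaned to D4 in late cells. Outside chromosome 11, genes with a mean log2 signal above 12 had medians of 0.06 in detached, 0.16 in attached and -0.004 in early-passage cells. Of them 37.3% were below 0 in detached cells. The share without overlap was not computed for bright genes alone, so the 7 of 23 cannot be set apart from that lean.

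**Figure D4:**
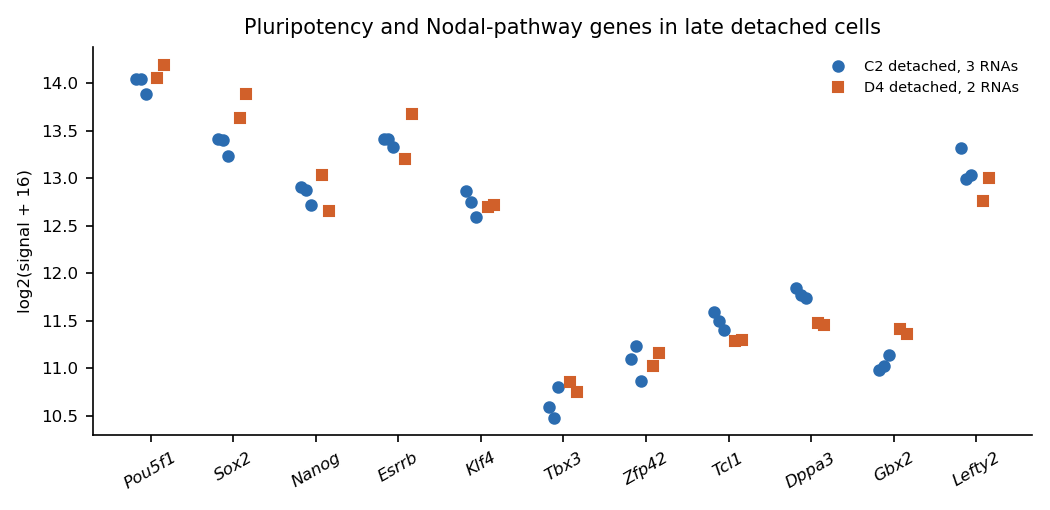
Points are log2(signal + 16) of 11 genes in the 3 C2 (blue circles) and 2 D4 (orange squares) late detached RNAs; Lefty2 is from MOE430B and the others from MOE430A. The 2 lines differ by at most 0.41, for Sox2, and no gene was called.

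In the Nodal pathway, which patterns the epiblast, the coreceptor gene Tdgf1 was at 13.88, 13.71 and 13.78 in C2 and 14.27 and 13.98 in D4, with D4 above C2 and a difference of 0.34 (-0.52 to 1.20). The ligand gene Nodal differed by 0.15 (-0.40 to 0.69), and its antagonist genes Lefty1 and Lefty2 by -0.67 (-1.59 to 0.24) and -0.23 (-1.23 to 0.76), all 3 with overlapping values. Lefty1 was at 13.39, 13.18 and 12.47 in C2 and 11.85 and 12.84 in D4, with 1 D4 value below all of C2 and 1 among them. Trh, the thyrotropin-releasing hormone gene, was at 12.45, 12.52 and 12.56 in C2 and 11.85 and 12.80 in D4, with a difference of -0.19 (-1.08 to 0.71). The proteoglycan gene Srgn was at 10.25, 10.37 and 10.35 in C2 and 10.59 and 10.89 in D4, a difference of 0.42 (-0.87 to 1.70). Cubn, an endocytic receptor of visceral endoderm, differed by 0.19 (-1.01 to 1.38).

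No lineage gene was called, and the list medians depended on single RNAs. Of the lineage lists, extraembryonic endoderm (25 tested) had a median of 0.10, mesoderm and primitive streak (14) -0.16, neuroectoderm (12) 0.02, trophoblast (9) -0.22 and primed epiblast (8) 0.12. With each detached RNA left out in turn, these medians ran from 0.00 to 0.28, -0.35 to 0.00, -0.03 to 0.14, -0.26 to 0.17 and -0.17 to 0.24. The trophoblast median was positive without C2 replicate 3 and without D4 replicate 1, and that of the primed epiblast was negative without D4 replicate 1. The mesoderm genes Msgn1 and Mesp1, both bHLH factors of early mesoderm, had opposite differences. Msgn1 was at 8.21, 6.52 and 8.38 in C2 and 9.15 and 9.16 in D4 (1.45, SE 0.61). Mesp1 was at 8.52, 8.85 and 9.20 in C2 and 8.74 and 5.09 in D4 (-1.94, SE 0.88), with 1 D4 value among those of C2. Cdh2 (N-cadherin), from the primed epiblast list, was at 7.32, 8.07 and 9.17 in C2 and 7.02 and 5.94 in D4 (-1.71, SE 0.75).

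The feeder list (32 tested) had a median of -0.20 in detached cells, -0.37 in attached and 0.30 in early-passage cells. The detached median was 0.05 without C2 replicate 3 and 0.09 without D4 replicate 1, so its sign rested on these RNAs. The collagen gene Col6a1 was at 8.11, 8.19 and 9.49 in C2 and 8.77 and 5.20 in D4, and the crosslinking enzyme gene Loxl1 at 9.23, 9.17 and 10.17 in C2 and 7.83 and 9.35 in D4. Their differences were -1.62 (SE 0.72) and -0.93 (SE 0.37), and the groups of both overlapped. Without D4 replicate 1, Col6a1 was called at -3.40 (limma adjusted p = 0.044). Col1a1 differed by -1.20 (-2.78 to 0.37), with C2 at 6.14, 7.36 and 8.56, and Thy1 by -0.20 (-1.04 to 0.63). In a bulk RNA, fewer cells of a type and less RNA per cell cannot be told apart.

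Imprinted genes, expressed from 1 parental allele and known to vary between ES cell cultures, showed no called difference among 31 tested, with a median of -0.04. The maternally expressed noncoding RNAs Meg3 and Rian were at -0.11 (-0.83 to 0.61) and -0.28 (-0.95 to 0.39). Of the paternally expressed genes, Igf2, a growth factor, was at 0.17 (-1.19 to 1.54) and Mest at 0.12 (-0.46 to 0.69). Peg3, a zinc finger gene, was at 12.93, 12.94 and 12.92 in C2 and 13.39 and 13.51 in D4. Its difference of 0.52 (-0.14 to 1.19) did not pass the test although the D4 values lay above C2. The other probe sets of Peg3 on MOE430A gave 0.18 and 0.08, and their groups overlapped.

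Sex chromosome genes offered few measurements. Xist, the RNA that coats the inactive X, was at 9.58, 9.88 and 9.60 in C2 and 9.15 and 9.27 in D4 by its 1 tested probe set. The difference was -0.48 (SE 0.22, unadjusted p = 0.043, limma adjusted p = 1.00), and -0.60 in attached cells. In early-passage cells D4 was not lower by that probe set, at 9.55, 9.60 and 9.81 in C2 and 9.63, 10.10 and 9.74 in D4, with overlap. The other 2 Xist probe sets were at 4.69 to 7.48 in the detached RNAs and were not tested. The Y-linked genes Eif2s3y, Kdm5d and Uty did not exceed the array median on any array. The translation factor gene Eif2s3y read 7.92, 8.30 and 8.05 in C2 and 6.28 and 6.23 in D4 on MOE430A, all below the median. Its probe set on MOE430B overlapped between the lines, at 8.47, 5.82 and 5.90 in C2 and 7.01 and 6.11 in D4. The probe sets of Kdm5d and Uty overlapped too, except a Uty set at 8.81, 7.61 and 7.80 in C2 and 7.45 and 7.51 in D4. X-linked genes as a whole had a median of 0.02. Rhox5, an X-linked homeobox gene, was at 14.06, 13.65 and 13.35 in C2 and 13.05 and 12.64 in D4, a difference of -0.84 (SE 0.30), with -0.59 in attached and -0.41 in early-passage cells.

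Genes that differ between C57BL/6 substrains were looked at because both lines carry that background. Nnt, a mitochondrial transhydrogenase that C57BL/6J mice lack in intact form, was at 11.41, 11.45 and 11.54 in C2 and 11.74 and 12.03 in D4. The difference of 0.42 (-0.25 to 1.08) did not pass the test. Crb1, mutated in C57BL/6N, was at 9.67, 10.23 and 10.03 in C2 and 9.27 in both D4 RNAs. Its difference was -0.71 (SE 0.20, unadjusted p = 0.0034, limma adjusted p = 1.00). It was -0.54 in attached and -0.01 in early-passage cells.

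In the other lists no member was called. Housekeeping complexes were the most tightly bounded, with intervals within 2-fold for 27 of 27 proteasome, 16 of 16 ribosomal protein and 27 of 28 respiratory chain genes, and medians of 0.01, 0.02 and 0.03. The lists of DNA methylation and chromatin (0.07), p53 response (0.05), cell cycle (-0.05), cholesterol synthesis (-0.07) and hypoxia and glycolysis (-0.02) lay nearby. The medians farthest from 0 were 0.14 for the FGF and ERK response and -0.25 for interferon and antigen presentation. The first was -0.02 without C2 detached replicate 1 and 0.01 without D4 replicate 3, and the second -0.08 without D4 replicate 3. In the interferon list 5 of 15 genes had both D4 values below C2, against 11.9% of all genes, namely the antiviral gene Oas1a (-0.95, SE 0.64), the regulators Irf7 (-0.79, SE 0.45), Irf1 (given above) and Irf9 (-0.33, SE 0.37), and the MHC class I gene H2-K1 (-0.46, SE 0.48). H2-K1 was at 10.45, 10.41 and 10.85 in C2 and 9.90 and 10.32 in D4. The list's median was -0.10 in attached and 0.27 in early-passage cells. Over all lists, 16 of 581 genes had an unadjusted p under 0.05, of which 1 was higher in D4, against 3.06% of all genes, so the share in the lists was near that of all genes. Prdm1, a repressor needed for germ cell specification, was at 9.53, 10.17 and 10.46 in C2 and 9.13 and 9.03 in D4 (-0.97, SE 0.32), with -0.01 in attached cells.

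Genes with the smallest p are given by their values, since none was called. Of the 10 with higher D4 values, 8 were measured on MOE430B, each at a mean log2 signal below 10 over the 17 RNAs. The probe set of Mrps10, a mitochondrial ribosomal protein gene, was at 8.72, 8.61 and 8.94 in C2 and 10.81 and 11.10 in D4 (2.20, SE 0.33, limma adjusted p = 0.067). A brighter probe set of Mrps10, with a mean of 13.44 over the 17 RNAs, gave 0.37 with overlapping groups. Apob, the apolipoprotein of visceral endoderm and liver, was at 9.60, 8.90 and 9.46 in C2 and 11.10 and 10.88 in D4 (1.67, SE 0.41), and 0.82 in attached cells. Hspa8, the constitutive HSP70 chaperone, was at 13.59, 13.02 and 13.06 in C2 and 14.27 and 14.06 in D4 (0.94, SE 0.26). Its brighter probe sets, at means of 16.06 and 15.94, gave 0.17 and -0.05, and a dim set 0.37, all with overlapping groups. The base excision repair glycosylase gene Nthl1 was at 9.96, 10.19 and 10.20 in C2 and 11.03 and 10.67 in D4 (0.73, SE 0.20), and 0.32 in attached cells. The others were Zfp980, Gm31437, Atf7ip2, Cyb5d2, 2810006K23Rik and Camk2d, at 1.52 to 2.66. Of these, Cyb5d2 lies on chromosome 11, and the other 3 probe sets of Camk2d gave -0.76, 0.33 and -0.16.

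The 10 with lower D4 values held Ankfy1 and Tspan10 of chromosome 11, described above. The unnamed transcripts 4930556A17Rik and 4930434J06Rik differed by -2.94 (SE 0.42) and -3.00 (SE 0.46), both at limma adjusted p = 0.067. With a filter on the 5 detached arrays 4930434J06Rik was not tested. Hoxa3, a homeobox gene of the pharyngeal arches, was at 9.66, 9.49 and 10.00 in C2 and 8.24 and 7.98 in D4 (-1.61, SE 0.33). It was at -0.70 in attached cells, and another, brighter probe set of Hoxa3 gave -0.42. For Amotl1, an angiomotin family gene of the Hippo pathway, the probe set gave -2.23 (SE 0.46). Its 2 brighter probe sets gave 0.09 and 0.25. Zmiz1, a coregulator of transcription, gave -2.54 (SE 0.53) by 1 probe set and 0.29 by a brighter set. Lrtm1, a leucine-rich repeat gene, gave -2.56 (SE 0.46) by 1 probe set and 0.23 by the other. Gabre, a GABA receptor subunit gene on X, was at 9.22, 8.96 and 8.66 in C2 and 6.81 and 7.51 in D4 (-1.78, SE 0.37), and -0.77 in attached cells. The last of the 10 was Ivl, the cornified envelope gene involucrin, at -2.64 (SE 0.57) but 1.13 in attached cells.

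**Figure D5:**
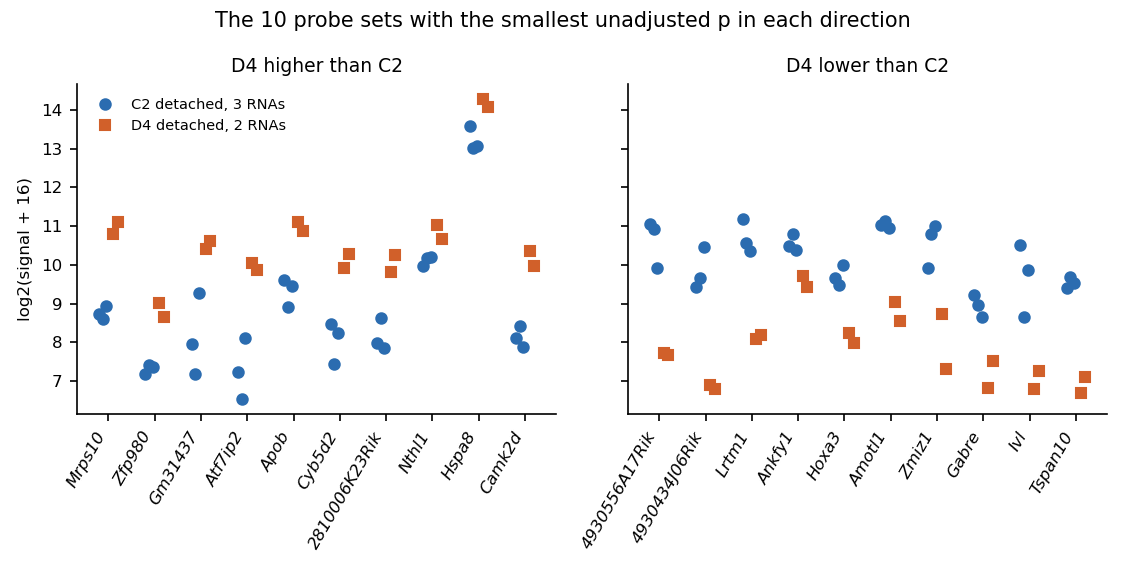
Points are log2(signal + 16) in the 3 C2 (blue circles) and 2 D4 (orange squares) late detached RNAs for the 10 probe sets with the smallest unadjusted p in each direction among those whose groups do not overlap. Differences run from 0.73 to 2.66 on the left and from -3.00 to -0.98 on the right, and none was called.

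Signs of the differences were compared with attached cells. The detached difference is not computed from attached RNAs, but these enter the filter and the shared spread by which the probe sets were picked. On MOE430A, 279 of the 374 probe sets with an unadjusted p under 0.05 (74.6%) had the same sign in attached cells, against 58.8% of all tested. Without chromosome 11 the share was 235 of 315 (74.6%). In early-passage cells it was 48.4%, against 46.7% of all tested. On MOE430B, 385 of 660 (58.3%) had the same sign in attached cells, against 57.7% of all tested, and 350 of 660 in early-passage cells, against 51.4%.

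A test of the detached against the attached line difference called 3 probe sets, all on MOE430B (0.0185% of 16213), with 1 higher (0.00617%) and 2 lower (0.0123%). At an unadjusted p under 0.05 there were 388 on MOE430A (2.74%), where limma called 0, and 668 on MOE430B (4.12%). Zfp980, a gene of a zinc finger cluster on chromosome 4, was at 7.17, 7.40 and 7.37 in C2 and 9.01 and 8.66 in D4 detached cells. In attached cells it was at 9.84, 9.85 and 9.85 in C2 and 8.27, 7.60 and 7.92 in D4, so the order of the lines was opposite. All 5 detached values of Zfp980 lay below the array medians, and its probe set passed the filter through C2 attached replicates 2 and 3 alone, a group where it is high. The difference between the line differences was 3.44 (SE 0.35, limma adjusted p = 0.0020), and the attached difference of -1.91 was itself called (limma adjusted p = 0.017), as 1 of 16213 (0.00617%). The transcripts 4930434J06Rik and 4930556A17Rik also changed order, at -4.42 (SE 0.61, limma adjusted p = 0.026) and -4.31 (SE 0.57, adjusted p = 0.021). Like Zfp980, 4930434J06Rik was not tested with a filter on the 5 detached arrays, so it passed the main filter only with arrays of other states. With that filter 4930556A17Rik was still tested. In each of the 3 the 3 C2 detached RNAs and the 2 D4 detached RNAs did not overlap. They were picked by a test on these same RNAs, so the lack of overlap adds no support. Over all genes 11.9% had both D4 RNAs below C2 and 10.3% both above. Zfp980 was called without each detached RNA in turn but was not tested without C2 attached replicate 2 or 3, nor with a filter on the 5 detached arrays, while the other transcripts were each lost in several such fits. With a trended, robust variance prior in limma none of the 3 was called, at adjusted p of 1.00, 0.71 and 0.17 for Zfp980, 4930434J06Rik and 4930556A17Rik. Against early-passage cells limma called 0 on either array type, with 584 (4.12%) and 641 (3.95%) at an unadjusted p under 0.05, and array weights called 1.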

How the data were processed

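Each of 17 RNAs was measured on 2 array types. The deposited intensity values are MAS5 signals per probe set, per the submitters' processing notes; the MAS5 version is not given in the sources used here. The 2% trimmed mean was 1500 on every array, so arrays had been scaled, and nothing was scaled further. Scan days and fluidics runs were inferred from the deposited scanner information. Symbols came from the platform annotation, updated through RefSeq genes of GRCm38.p6, which matched 20364 of 22690 probe sets on MOE430A and 14499 of 22575 on MOE430B; 691 and 245 carried several symbols and were not named.

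Signals were taken as log2(signal + 16), which understates fold changes of dim probe sets. Probe sets above the array median on at least 2 of 17 arrays were tested, without controls. Each array type was fitted separately in limma 3.58.1 (R 4.3.3), and the fit had a mean for each of the 6 groups, which share a spread (11 residual degrees of freedom). Benjamini-Hochberg adjustment ran over each array type, and calls are at adjusted p under 0.05. Intervals are 95%. The fit was tested on simulated data. For counts by gene, the probe set with the highest mean was kept, with MOE430A taking precedence over MOE430B. Replicate numbers were checked as pairs: deviations of same-numbered RNAs correlated at -0.18 to 0.13, so they do not pair the samples.

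Named genes were the 10 uncalled probe sets per direction with the smallest p, non-overlapping groups and a brighter group above 8, a fixed set of pluripotency, lineage, imprinted, sex-linked and feeder genes, and calls of the interaction tests. Other genes were chosen after their values were seen. The members and the gene lists were chosen with earlier results of these data known. Alternatives were other pseudocounts, filters, scalings, weights, blocks and left-out RNAs.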

Additional observations from a re-analysis of the deposited data

Results flagged for a closer look

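The 3 transcripts on MOE430B were picked out because their line difference in detached cells differed from that in attached cells by limma's interaction test. Zfp980 had 3.44, with D4 above C2 in detached and below it in attached cells; its detached values lay below the array medians, and it was tested only because 2 C2 attached RNAs exceeded theirs. For 4930434J06Rik the value was -4.42 and for 4930556A17Rik -4.31, with D4 below C2 in detached and above it in attached cells. The probe set of 4930434J06Rik too was tested only because arrays of other states exceeded their medians. The 3 C2 attached values of 4930556A17Rik were 8.83, 8.73 and 8.52, and those of D4 9.58, 9.87 and 10.75. C2 and D4 detached arrays were scanned on different days, so line and day cannot be told apart on the detached side of these tests. Groups of 2 or 3 RNAs are too small for the test of outlying samples.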

How the results depend on the processing

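For the detached comparison, counts of called probe sets other than 0 arose as follows. On MOE430A they were 3 with the 5 detached arrays alone, and 0 to 4 when RNAs were left out in turn, with 4 without D4 detached replicate 1, whose lone partner is then assumed to vary like the other groups; these were Lfng, Krt6b, Col6a1 and an unnamed probe set, all lower in D4. On MOE430B they were 1 with the filter at the 75th percentile, 6 with array weights, 4 with the fluidics run as a random block (added after seeing the data), and 0 to 1 with RNAs left out, with 1 without C2 detached replicate 3. The replicate block gave 0 calls on MOE430A and 1 on MOE430B, an unnamed probe set. The run as a fixed block gave 0 on MOE430B and could not be fitted on MOE430A, where the random block gave 0. No run held both detached groups, so there is no within-run value. The detached minus attached test gave 1 to 2 calls without a detached RNA, with 1 each without C2 replicate 1, C2 replicate 2, D4 replicate 1 and D4 replicate 3, 2 with the replicate block (4930556A17Rik lost), 0 to 3 without an attached RNA (0 without C2 replicate 2), and 0 with a trended, robust prior. With the run as a fixed block on MOE430B the adjusted p of Zfp980 was 0.67. Against early-passage cells 1 call arose with array weights, 1 with the replicate block (both Scnn1a) and 0 to 2 without a detached RNA, the 2 without D4 replicate 1. Further single calls of Scnn1a or H2-Aa arose with the stricter filters, without D4 attached replicate 3 (also with C2 attached replicate 1 left out) and without D4 early replicate 3. List members called were 0 to 1 without a detached RNA, the 1 (Col6a1) without D4 replicate 1. The chromosome 11 difference was -0.18 to -0.12 under 12 alternatives, all chosen after seeing the data, and in attached cells -0.11, and -0.08 without C2 replicate 1 and D4 replicate 3. Of 545 alternative values of named genes, 29 moved by more than 1 standard error, 7 became calls in the same direction and 0 reversed as a call. The causes of these changes were not tested. Of intervals on MOE430B 19.9% lay within 2-fold, and the share was below that of MOE430A also at like brightness (63.8% against 93.8% above a log2 signal of 12). Of 248 alternative medians of lists, 40 moved by more than the spread between RNAs.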
